A study of Mus musculus with 25 samples.

Results

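The junction genes of the lung's endothelial and epithelial barriers were followed across irradiated and compound-treated mice: Cdh5, Cldn5, Cldn3, Cldn4, Cldn7, Cldn18, Ocln, Tjp1 and Cdh1. A gene was represented by the probe set that carried its symbol alone and had the highest mean over all arrays. These 9 genes had 15 such probe sets, and all 9 were among the 12937 genes tested, out of 18193 genes with a probe set of a single symbol. The study asked how sphingosine-1-phosphate analogues act in lungs injured by radiation. It used 25 arrays of whole lung RNA, 1 per animal as the labels count them, from female C57BL/6J wildtype mice, 14 to 17 weeks of age and 20 to 25 g in weight. Control mice (n = 4) received PBS. The groups named fTyS, SEW and FTY (n = 3 each) received (S)-FTY-phosphonate, SEW-2871 or FTY720 by intraperitoneal injection at 0.1 mg/kg, 2 times a week. The radiation group (n = 3) received 1 thoracic dose of 25 Gy, and the groups named radiation+fTyS, radiation+SEW and radiation+FTY (n = 3 each) received that dose and the compound on the schedule above. No label says whether the radiation group received PBS, and the time from treatment to collection is not given in the sources used here.

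Cells of the vessel wall and of the airspace are sealed to their neighbours by adherens junctions, built on cadherins, and by tight junctions, in which claudins and occludin span the membrane and zonula occludens proteins anchor them to actin. Cdh5 encodes VE-cadherin and Cldn5 the main claudin of endothelium, so in lung RNA both report mostly on vessels. Cdh1 encodes E-cadherin, and Cldn3, Cldn4, Cldn7 and Cldn18 encode claudins of the airway and alveolar epithelium. Sphingosine-1-phosphate strengthens the endothelial barrier through its receptor S1pr1. SEW-2871 activates that receptor selectively, FTY720 becomes a receptor agonist once phosphorylated, and (S)-FTY-phosphonate carries a phosphonate where phosphorylated FTY720 carries a phosphate. In RNA from whole lung, fewer cells of a type and less RNA per cell cannot be told apart.

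The arrays carried the lung's own markers: the mean of 12 endothelial markers lay between 11.05 and 11.57 on every array, and that of 7 alveolar type 2 markers between 12.24 and 12.70, all as log2(signal + 16). Arrays also differed in markers of tissue outside the alveoli. The mean of the squamous keratins Krt4, Krt5 and Krt13 was 10.84 or more on 7 arrays (control replicate 2, fTyS replicate 2, SEW replicates 1 and 3, radiation+fTyS replicate 2, radiation+SEW replicate 1 and radiation+FTY replicate 1), 8.29 on radiation+SEW replicate 2, and 6.37 or less on the other 17. The thyroid marker Tg and the parathyroid marker Pth stayed low on all 25 arrays, at most 5.89 and 5.38. Skeletal muscle markers ranged from 6.17 to 12.65 and adipocyte markers from 6.88 to 10.88. The labels call the samples single animals, and the p-values below measure the spread between them.

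Few of the junction genes differed between groups beyond the spread of the arrays. Of the 198 pairs of a junction gene and a comparison, 6 were called by limma at an adjusted p of at most 0.05, against 5.56% of all gene and comparison pairs. Cdh1 accounted for 4 of the 6, Ocln for 1 and Cldn7 for 1. The calls fell into radiation against control (4.4% of all genes called), SEW against control (14.6%), radiation+FTY against FTY (14.1%), the interaction of radiation and SEW (13.9%) and the mean of the 3 compounds against control (10.3%). No member was called in the other 17 comparisons, where the share of all genes called ran from 0% to 20.8%, with 0.456% in radiation+fTyS against fTyS and 17.7% in radiation+SEW against SEW. In the F test for any difference among the 8 groups, 23.6% of all genes were called and none of the 9 was. The smallest adjusted p there was 0.0650, for Cdh1, and the largest was 0.869, for Cldn5. At an unadjusted p under 0.05, the F test took in Cldn7, Ocln, Tjp1 and Cdh1, with p of 0.0465, 0.0350, 0.0257 and 0.0179. The share of all genes under that unadjusted threshold was not counted. It can be no smaller than the 23.6% called after adjustment, so these p-values are not read as a result about the members. The median SD within groups was 0.10 for the 9 genes and 0.13 for all genes tested. All values and differences below are on the log2(signal + 16) scale, and a difference there understates the change of a dim probe set.

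**Figure D1:**
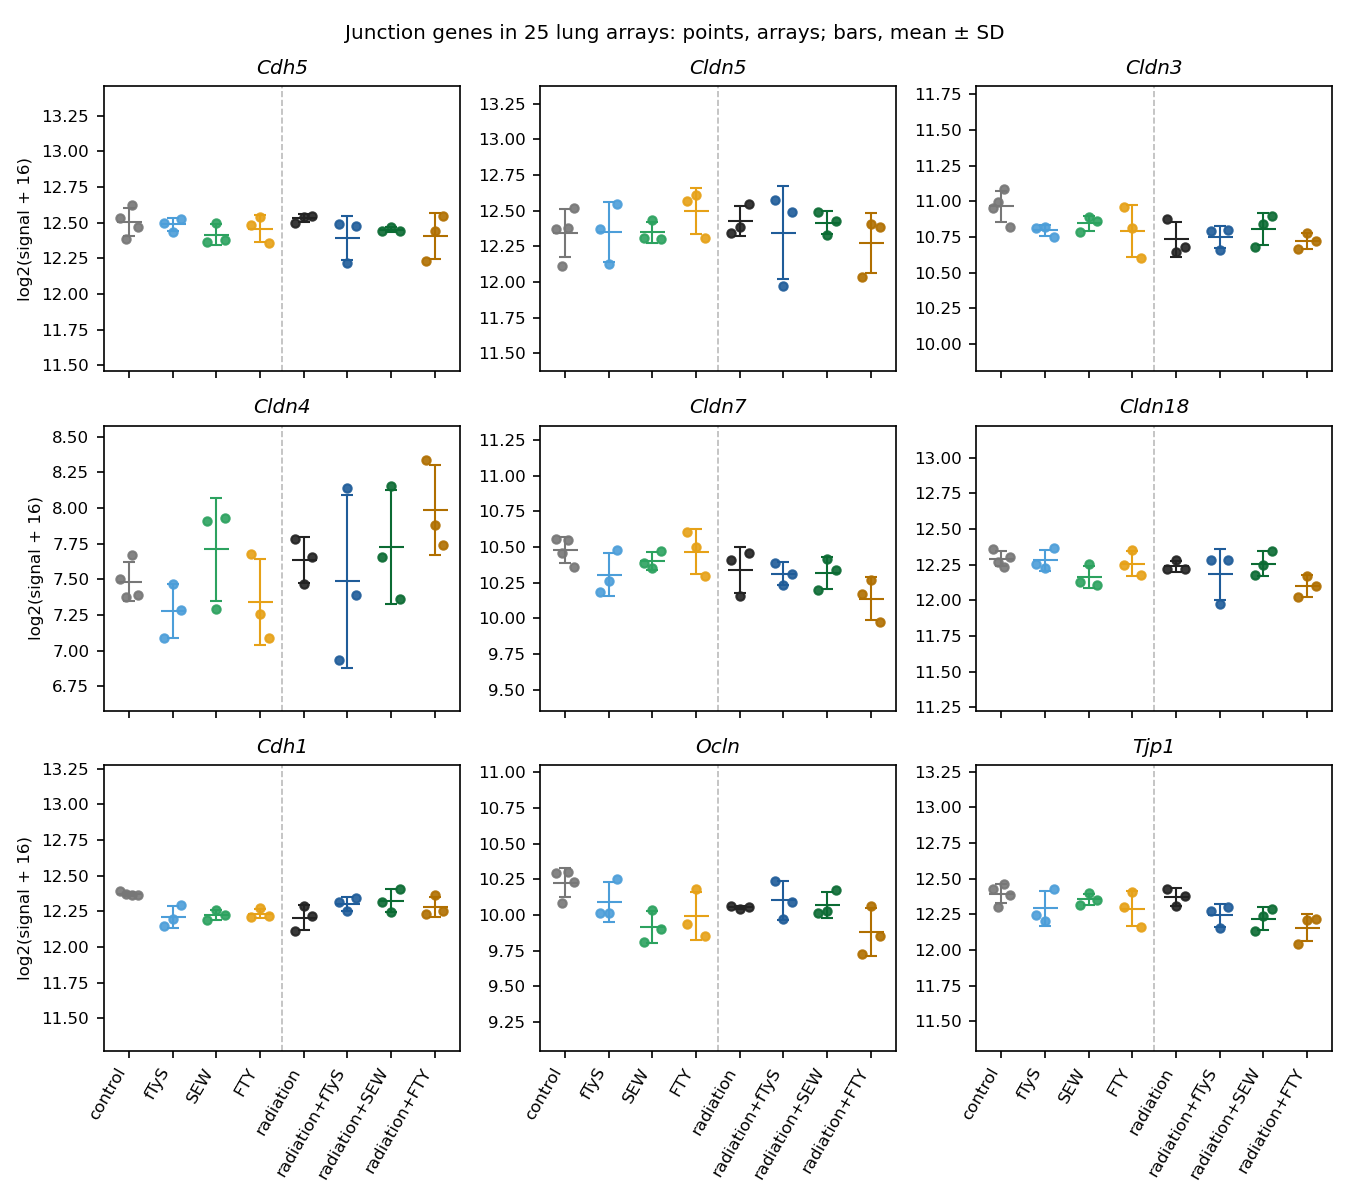
Level of each of the 9 junction genes, as log2(signal + 16) on the vertical axes, on every array of the 8 groups on the horizontal axes. Points are arrays, horizontal marks and bars are the group mean ± SD, every panel spans 2 log2 units, and the dashed line separates unirradiated from irradiated groups; Cldn4 spreads from 6.94 to 8.34, while Cdh1 spreads from 12.11 to 12.41.

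The endothelial genes Cdh5 and Cldn5 were called in none of the 22 comparisons. Cdh5 read 12.54, 12.39, 12.63 and 12.47 on the control arrays and 12.50, 12.54 and 12.55 on the radiation arrays. The radiation values fell within the range of the controls, and the difference was 0.03 (95% interval -0.13 to 0.18, adjusted p = 0.913). In percent of signal, that interval ran from -8.30 to 13.1. Cdh5 lay at 12.44, 12.47 and 12.44 with radiation+SEW, below all 3 radiation arrays, and at 12.49, 12.22 and 12.48 with radiation+fTyS, again below them. Neither difference passed the test (adjusted p of 0.635 and 0.503), and between 17.7% and 27.1% of all genes showed groups without overlap in these 2 comparisons. Over all 22 comparisons, the Cdh5 difference stayed between -0.14 and 0.07. A second, dimmer Cdh5 probe set, with a mean of 7.06, followed the first at r = 0.59 and gave 0.08 for radiation against control, and -0.54 for radiation+FTY against radiation where the first gave -0.13.

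Cldn5 varied more within groups than Cdh5, with a pooled SD of 0.18 against 0.10. Its control arrays read 12.37, 12.11, 12.38 and 12.52, its radiation arrays 12.34, 12.39 and 12.55, and the difference was 0.08 (95% interval -0.19 to 0.36, adjusted p = 0.833). The highest group mean was 12.49 ± 0.16 (SD, n = 3) under FTY alone and the lowest 12.27 ± 0.21 (SD, n = 3) under radiation+FTY. These 2 extremes differed by 0.22 (radiation+FTY lower, adjusted p = 0.314), and their arrays overlapped. The lowest Cldn5 arrays of the data were radiation+fTyS replicate 2 at 11.97, radiation+FTY replicate 1 at 12.03, control replicate 2 at 12.11 and fTyS replicate 2 at 12.13. All 4 are among the 7 arrays high in squamous keratins; what that has to do with the Cldn5 level was not tested.

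Pecam1, an adhesion molecule at endothelial contacts, was likewise called in none of these comparisons. Its mean was 11.14 in controls and 11.29 after radiation (difference 0.15, adjusted p = 0.753). None of the 12 endothelial markers was called between radiation and control, where 4.4% of all genes were. Their median difference there was 0.06 beside -0.01 for all genes. When the mean of the endothelial markers was subtracted on each array, Cdh5 read 1.13 ± 0.03 (SD, n = 4) in controls and 1.08 ± 0.07 (SD, n = 3) after radiation, and group means ran from 1.02 under SEW to 1.19 under radiation+FTY. For Cldn5 the same quantity ran from 0.95 under SEW to 1.11 under radiation+SEW.

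Cdh1, the E-cadherin gene of epithelial adherens junctions, was the member most often called, and it was high in controls. The control arrays read 12.39, 12.37, 12.36 and 12.36, with an SD of 0.01. The radiation arrays read 12.11, 12.29 and 12.22, all below every control, as for 13.8% of all genes, and the mean fell by 0.17 (95% interval -0.26 to -0.07, adjusted p = 0.0486), or by 10.8% of signal. In that comparison 4.4% of all genes were called, and Cdh1 was the 1 member of 9. With the replicate number as a block, which the arrays of this comparison bear out, the difference was -0.17 and the adjusted p 0.0509, so the call was lost. It was also lost on leaving out any of the 4 controls, radiation replicates 1 and 3, fTyS replicate 2, any SEW or FTY array, radiation+fTyS replicates 1 and 3, radiation+SEW replicate 1, or radiation+FTY replicates 1 and 3, with differences between -0.17 and -0.12 and adjusted p from 0.0503 to 0.314. It held on leaving out each of the other 7 arrays. Without the 7 arrays high in squamous keratins the difference was -0.17 (adjusted p = 0.198). Neutrophil markers rose in the same comparison, 5 of 5, with means of 9.45 to 10.72 on the radiation arrays and 7.14 to 8.28 on the controls, and 5 of 7 monocyte and macrophage markers rose; their part in the Cdh1 difference was not tested.

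Cdh1 was also lower in SEW than in control, and lower in the mean of the 3 compounds. The arrays read 12.14, 12.20 and 12.30 under fTyS, 12.19, 12.26 and 12.22 under SEW, and 12.21, 12.27 and 12.22 under FTY. Each of these 9 arrays lay below the lowest control array; groups without overlap made up 11% of all genes for fTyS, 27.6% for SEW and 15.3% for FTY. The difference from control was -0.16 for fTyS (adjusted p = 0.135), -0.15 for SEW (adjusted p = 0.0400) and -0.14 for FTY (adjusted p = 0.119). SEW alone passed the threshold, in a comparison that called 14.6% of all genes, against 0.178% for fTyS and 2.73% for FTY. The SEW call was lost on leaving out any control or SEW array, with differences between -0.17 and -0.13 and adjusted p from 0.0518 to 0.168, and without the 7 arrays high in keratins (-0.11, adjusted p = 0.625). No pair of compounds differed in Cdh1 at the threshold. The mean of the 3 compounds lay 0.15 below control (95% interval -0.22 to -0.07, adjusted p = 0.0160), where 10.3% of all genes were called and Cdh1 was again the 1 member. Without control replicate 3 that difference was -0.15 (adjusted p = 0.0606), and without the 7 arrays high in keratins -0.13 (adjusted p = 0.214).

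In irradiated lungs the Cdh1 means under a compound lay above the mean without one, and none of these 3 differences was called. Cdh1 read 12.31, 12.25 and 12.34 under radiation+fTyS, 12.32, 12.25 and 12.41 under radiation+SEW, and 12.23, 12.36 and 12.25 under radiation+FTY. Their means of 12.30, 12.32 and 12.28 lay above the radiation mean of 12.21 by 0.10, 0.12 and 0.08, with overlapping arrays and adjusted p of 0.449, 0.221 and 0.371. The radiation difference under SEW (radiation+SEW less SEW, 0.10) exceeded that without compound (-0.17) by 0.27 (95% interval 0.12 to 0.41, adjusted p = 0.0156). Without radiation+SEW replicate 3 it was 0.22 (adjusted p = 0.0568), and without the 7 arrays high in keratins 0.23 (adjusted p = 0.218). For fTyS and FTY the same interaction was 0.25 and 0.21, with adjusted p of 0.0672 and 0.0641. These 3 interactions share the control and radiation arrays. All genes were called at 13.9% in the SEW interaction, 1.35% in that of fTyS and 6.84% in that of FTY. Over the 4 irradiated against the 4 unirradiated groups, Cdh1 differed by 0.02 (95% interval -0.03 to 0.07).

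**Figure D2:**
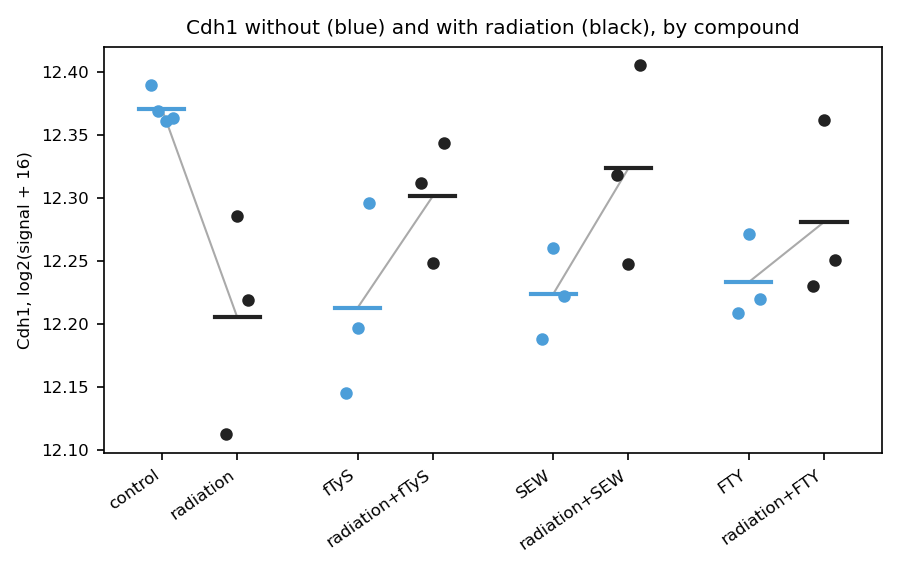
Cdh1 level as log2(signal + 16) on the vertical axis for each group on the horizontal axis, without radiation in blue and with radiation in black. Points are arrays, thick bars group means and grey lines join the 2 means of each compound; the 4 control arrays lie between 12.36 and 12.39 and the line falls without compound, by 0.17, and climbs by 0.05 to 0.10 with one.

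Markers of the epithelial cells that carry Cdh1 were read on the same arrays. The mean of the 7 measured alveolar type 2 markers ran from 12.53 to 12.70 in controls, 12.47 to 12.53 after radiation, 12.37 to 12.54 under fTyS, 12.43 to 12.52 under SEW and 12.24 to 12.53 under FTY. None of these markers was called between radiation and control (4.4% of all genes called), 1 of 7 was lower under SEW (14.6%) and 1 of 7 lower under FTY (2.73%). Cdh1 less the mean of these markers was -0.23 ± 0.08 (SD, n = 4) in controls, -0.29 ± 0.12 (SD, n = 3) after radiation and -0.25 ± 0.03 (SD, n = 3) under SEW. Cdh1 alone had an SD of 0.01 in controls, so the spread of the markers enters these values. Less the mean of the 9 general epithelial markers, Cdh1 was 1.92 ± 0.05 (SD, n = 4) in controls, 1.83 ± 0.12 (SD, n = 3) after radiation and 1.85 ± 0.09 (SD, n = 3) under SEW. The gaps between groups in these subtracted values were not tested. With the epithelial markers as a covariate, the Cdh1 difference was -0.16 for radiation and -0.14 for SEW, with adjusted p of 0.153 and 0.128.

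When arrays were centred on their medians, the radiation difference was -0.11 (adjusted p = 0.333), that of SEW -0.13 (adjusted p = 0.153) and the SEW interaction 0.20 (adjusted p = 0.146). Centring moved the median of all genes by at most 0.08. The 4 Cdh1 calls were made in 14, 26, 37 and 36 of 41 alternatives, in the order radiation, SEW, interaction and mean of the compounds.

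Ocln encodes occludin, a tight junction protein of epithelium and endothelium, and its highest group mean was also the control's. Control arrays read 10.30, 10.08, 10.30 and 10.23. The SEW arrays read 9.81, 10.04 and 9.90, all below the controls as for 27.6% of all genes, and the mean fell by 0.31 (95% interval -0.51 to -0.12, adjusted p = 0.0319). Under FTY the arrays read 9.94, 10.18 and 9.86, a difference of -0.23 that overlapped the controls and missed the threshold (adjusted p = 0.181). Under fTyS they read 10.01, 10.01 and 10.25, a difference of -0.14 (adjusted p = 0.477). Radiation arrays were close together at 10.07, 10.04 and 10.06, below every control, with a difference of -0.17 (adjusted p = 0.366). In that comparison 13.8% of all genes showed no overlap. The 3 compounds together lay 0.23 below control (95% interval -0.38 to -0.07), with an adjusted p of 0.0534.

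The call was lost on leaving out control replicate 1, 3 or 4 or SEW replicate 1 or 3, with differences between -0.31 and -0.26 and adjusted p from 0.0508 to 0.162. A dimmer probe set of Ocln gave a SEW difference of -0.29 (adjusted p = 0.110). SEW replicates 1 and 3 are among the 7 arrays high in squamous keratins, and they held the 2 lower Ocln values of that group. Adipocyte markers ran from 8.37 to 10.87 under SEW and from 7.0 to 9.10 in controls, and Ocln ran against that list over the 25 arrays (Pearson r = -0.80). With skeletal muscle and adipocyte markers as covariates the SEW difference was -0.15 (adjusted p = 0.107), and with the squamous keratins as a covariate it was -0.23 (adjusted p = 0.0382). Without the 7 arrays it was -0.24 (adjusted p = 0.512), with 1 SEW array left, whose spread is taken to be that of the other groups. In irradiated lung, Ocln was lowest under radiation+FTY at 9.73, 10.06 and 9.86, and no comparison there was called.

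Tjp1 encodes ZO-1, the scaffold beneath tight junctions, and it was called in no comparison. Control arrays read 12.43, 12.30, 12.46 and 12.39 and radiation arrays 12.43, 12.30 and 12.38, a difference of -0.03 (95% interval -0.16 to 0.11). With a compound added to radiation the arrays read 12.27, 12.15 and 12.30 under fTyS, 12.13, 12.24 and 12.29 under SEW, and 12.04, 12.21 and 12.22 under FTY. All 9 lay below the lowest radiation array. The highest of them, radiation+fTyS replicate 3 at 12.3036, all but met that array, at 12.3047. The differences from radiation were -0.13, -0.15 and -0.21, with adjusted p of 0.481, 0.266 and 0.0825, where 0.858%, 2.48% and 3.02% of all genes were called. Tjp1 and Cdh5 were the members without overlap between radiation and radiation+fTyS (17.7% of all genes showed none) or radiation+SEW (27.1%), and Tjp1 and Cldn18 those between radiation and radiation+FTY, where 27.7% of all genes showed none. For the mean of the 3 compounds the Tjp1 difference from radiation was -0.16 (95% interval -0.28 to -0.05, adjusted p = 0.120), in a comparison that called 3.08% of all genes.

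**Figure D3:**
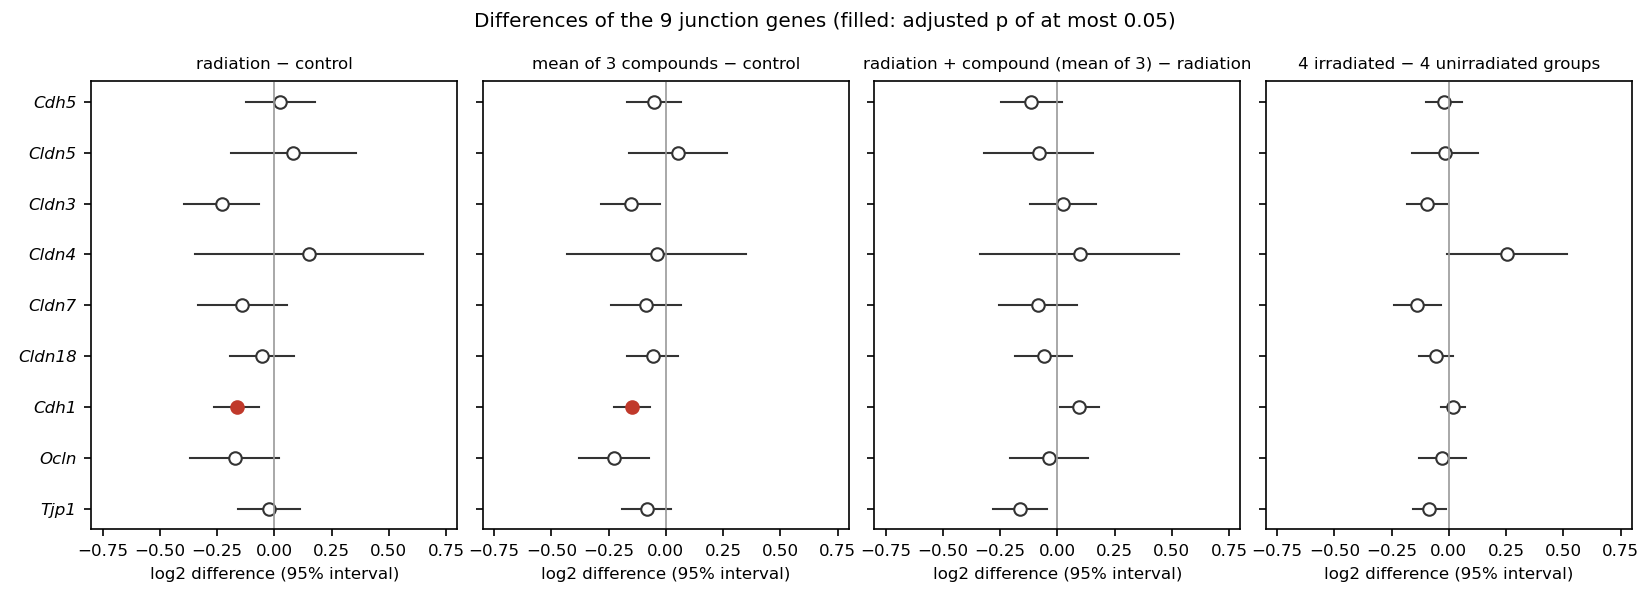
Difference in log2(signal + 16) with its 95% interval on the horizontal axes for the 9 junction genes on the vertical axis, in 4 comparisons named above the panels. Filled circles passed an adjusted p of 0.05 over all genes; only Cdh1 did, at -0.17 in radiation against control and -0.15 for the mean of the compounds against control.

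Cldn7, a claudin of airway and alveolar epithelium, differed in 1 comparison. FTY arrays read 10.61, 10.50 and 10.29 and radiation+FTY arrays 10.17, 10.27 and 9.97, without overlap (31.8% of all genes showed none), and the mean fell by 0.33 (95% interval -0.54 to -0.12, adjusted p = 0.0321). In that comparison 14.1% of all genes were called. The corresponding difference was -0.14 without compound (adjusted p = 0.486), 0.01 under fTyS (adjusted p = 0.991) and -0.08 under SEW (adjusted p = 0.607). The interaction of radiation and FTY was -0.19 (95% interval -0.47 to 0.09, adjusted p = 0.420), so the radiation difference under FTY was not shown to exceed that without compound. Over all irradiated against all unirradiated groups, Cldn7 lay 0.14 lower (95% interval -0.24 to -0.04), with an adjusted p of 0.0515 where 20.8% of all genes were called. Leaving out FTY replicate 1 gave -0.26 (adjusted p = 0.133), leaving out FTY replicate 2 gave -0.31 (adjusted p = 0.0976), leaving out radiation+FTY replicate 1 gave -0.35 (adjusted p = 0.0681) and leaving out radiation+FTY replicate 3 gave -0.25 (adjusted p = 0.135) for radiation+FTY against FTY.

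Mesothelial markers, of the lung's outer lining, moved in the same groups. Their mean ran from 9.58 to 9.89 under radiation+FTY and from 8.91 to 9.30 under FTY. Between these groups 4 of 7 rose, where 14.1% of all genes were called. Cldn7 less the mean of 9 general epithelial markers was 0.11 ± 0.04 (SD, n = 3) under FTY and -0.28 ± 0.08 (SD, n = 3) under radiation+FTY. Over the 25 arrays Cldn7 followed that list at only r = 0.17, and the part of cell content in the Cldn7 difference was not tested. Skeletal muscle markers ran from 7.06 to 12.30 under radiation+FTY and from 6.40 to 6.76 under FTY; their part in the result was not tested beyond the covariate fit, which gave -0.29 (adjusted p = 0.0950).

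Cldn4 encodes a claudin that is scarce in resting alveoli and increases in injured epithelium. It showed the widest range of the 9 genes and passed no test. Controls read 7.50, 7.37, 7.67 and 7.39, radiation arrays 7.78, 7.47 and 7.66, and the difference was 0.15 (95% interval -0.35 to 0.65). Group means ran from 7.28 ± 0.19 (SD, n = 3) under fTyS to 7.99 ± 0.31 (SD, n = 3) under radiation+FTY. The radiation+FTY arrays at 8.34, 7.88 and 7.74 lay above the FTY arrays at 7.68, 7.26 and 7.08, a difference of 0.65 (95% interval 0.11 to 1.18, adjusted p = 0.0979). Between these groups 31.8% of all genes showed no overlap. Within radiation+fTyS the arrays read 6.94, 8.14 and 7.39, a spread wider than any difference between group means. The highest arrays were radiation+FTY replicate 1 at 8.34, radiation+SEW replicate 2 at 8.15 and radiation+fTyS replicate 2 at 8.14; the first and the last are high in squamous keratins and the other has them at 8.29. Control replicate 2, also high in keratins, read 7.37, the lowest of the controls.

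**Figure D4:**
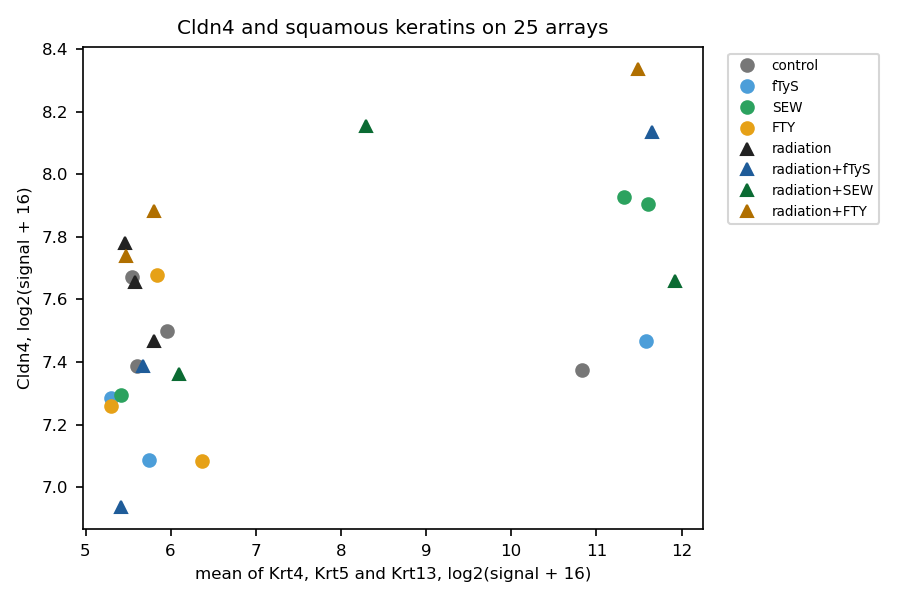
Cldn4 on the vertical axis against the mean of the squamous keratins Krt4, Krt5 and Krt13 on the horizontal axis, both as log2(signal + 16), for 25 arrays coloured by group, with circles for unirradiated and triangles for irradiated animals. The 7 arrays at 10.84 or more in keratins lie apart from the rest; their Cldn4 levels run from 7.37 to 8.34.

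Cldn3, whose protein lies in airway and alveolar type 2 cells, had its highest group mean in controls and was not called. Controls read 10.95, 10.998, 11.09 and 10.82 and radiation arrays 10.88, 10.65 and 10.68, a difference of -0.23 (95% interval -0.39 to -0.07, adjusted p = 0.111). The other 3 probe sets of Cldn3 gave radiation differences between -0.29 and -0.15, the same direction. The fTyS arrays, at 10.81, 10.82 and 10.75, lay below all controls (difference -0.17, adjusted p = 0.318). The highest of them, at 10.8213, all but met the lowest control, at 10.8219, and 11% of all genes showed no overlap there. Added to radiation, fTyS, SEW and FTY gave Cldn3 differences of 0.02, 0.07 and -0.01. The other 3 probe sets disagreed among themselves there, from -0.06 to 0.14 for fTyS, -0.12 to 0.05 for SEW and -0.31 to -0.06 for FTY. Cldn18, the claudin of alveolar epithelium, read 12.24 to 12.36 in controls and 12.22 to 12.29 after radiation, a difference of -0.05 (95% interval -0.19 to 0.09). Its lowest mean was 12.10 ± 0.08 (SD, n = 3) under radiation+FTY. The arrays there lay below those of FTY (difference -0.16, adjusted p = 0.148), by a margin of 12.1735 against 12.1744, where 31.8% of all genes showed no overlap. They also lay below those of radiation (difference -0.14, adjusted p = 0.244), where 27.7% of all genes showed none. A second Cldn18 probe set gave -0.53 and -0.36 for these comparisons. Cldn18 less the mean of the alveolar type 1 markers was 0.21 ± 0.07 (SD, n = 4) in controls and 0.07 ± 0.004 (SD, n = 3) under radiation+FTY. It was 0.11 ± 0.05 under radiation alone, 0.14 ± 0.07 under radiation+fTyS and 0.16 ± 0.01 under radiation+SEW (SD, n = 3 each). Without radiation it was 0.27 ± 0.03 under fTyS, 0.23 ± 0.04 under SEW and 0.22 ± 0.01 under FTY (SD, n = 3 each). The gaps between groups in these values were not tested.

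In the order of group means, control came first for 6 of the 9 genes (Cldn3, Cldn7, Cldn18, Ocln, Tjp1 and Cdh1) and radiation+FTY last for 6 (Cldn5, Cldn3, Cldn7, Cldn18, Ocln and Tjp1). The shares of all genes with control first or radiation+FTY last were not counted. Several members also vary together over the arrays, so these orders are not separate observations. Between first and last the means differed by 0.14 for Cdh5, 0.17 for Cdh1, 0.19 for Cldn18, 0.22 for Cldn5, 0.24 for Cldn3 and for Tjp1, 0.34 for Cldn7, 0.35 for Ocln and 0.71 for Cldn4. Arrays of groups next to each other in these orders overlapped in all 63 cases. Neighbours in a sorted order are close by construction, and over all genes 3.04% of such neighbours did not overlap, so the count says nothing particular about these genes.

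The 3 compounds were given at the same dose and schedule. They were set against each other in 6 comparisons, 3 without and 3 with radiation, in which 0.916% of all genes and comparisons were called (1.55% in fTyS against SEW, 3.95% in radiation+fTyS against radiation+FTY and 0% in the other 4) and none of the 54 pairs of a member and a comparison. fTyS less FTY, which differ in the phosphonate group that the first carries, was 0.00 for Cldn3 and Tjp1, -0.02 for Cdh1 (95% interval -0.12 to 0.08) and 0.10 for Ocln (95% interval -0.11 to 0.31) in unirradiated lung. It was largest for Cldn7, at -0.16 (95% interval -0.37 to 0.05), and Cldn5, at -0.15 (95% interval -0.44 to 0.15), and between -0.06 and 0.03 for Cldn4, Cdh5 and Cldn18. Under radiation the same pair differed most in Cldn4, by -0.50 (95% interval -1.03 to 0.03), and in Ocln, by 0.22 (95% interval 0.01 to 0.43, adjusted p = 0.213). Over the 6 comparisons the intervals reached from -0.15 to 0.12 for Cdh1, from -0.22 to 0.23 for Cdh5, from -0.40 to 0.43 for Ocln and from -0.44 to 0.44 for Cldn5.

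The genes varied together from array to array, and with markers of cell types. Cdh5 followed Cldn5 over the 25 arrays (Pearson r = 0.73, and 0.81 about the group means), and each followed the mean of the 12 endothelial markers (r = 0.84 and 0.78, and 0.89 and 0.84 about the group means). Cldn18 and Ocln followed each other at r = 0.78 (also 0.78 about the group means), and Ocln followed the alveolar type 2 markers at r = 0.78 (0.82). Cdh1 was at r = 0.00 with the endothelial markers and 0.58 with the alveolar type 2 markers, but at 0.33 and 0.36 about the group means. Cldn4 ran against Cldn18 at r = -0.69 (-0.66 about the group means) and with the general epithelial markers at r = 0.64 (0.73). The 25 arrays share groups and tissue composition, so these values describe the arrays and carry no test.

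**Figure D5:**
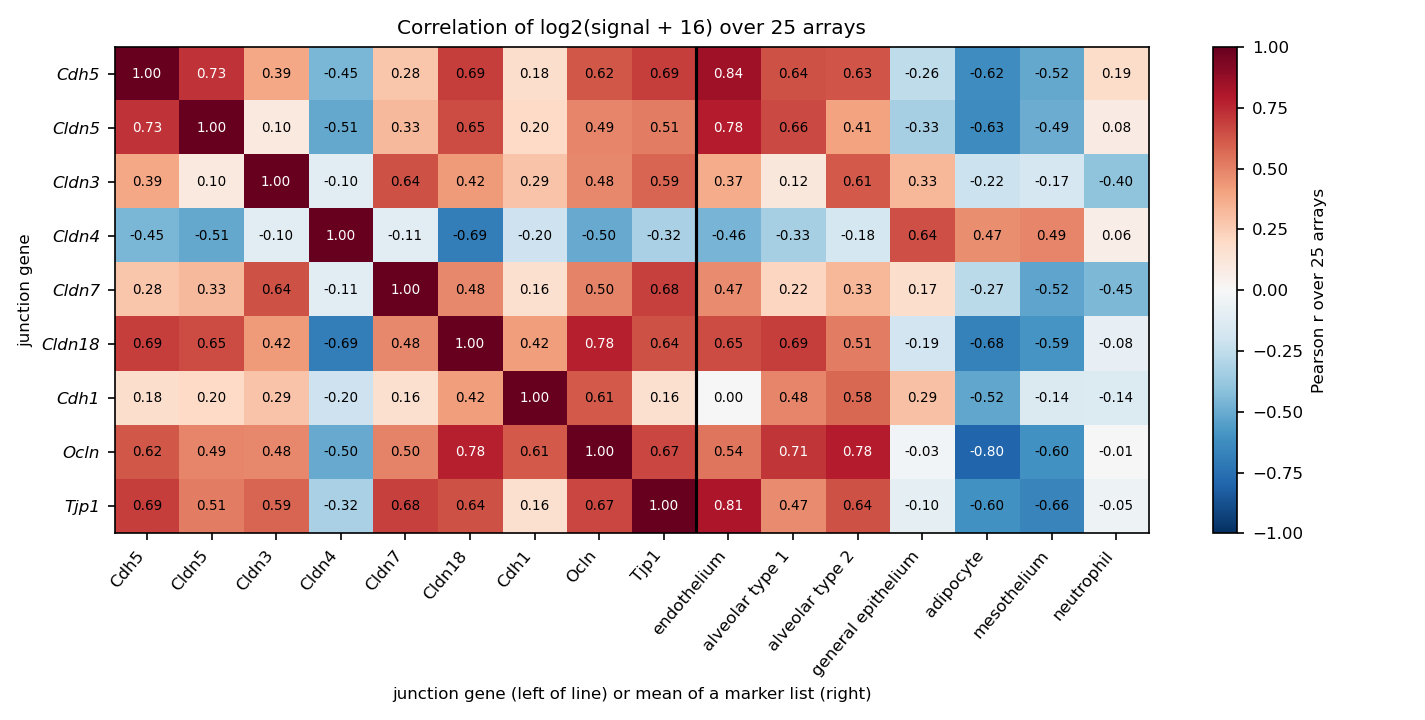
Pearson r of log2(signal + 16) over 25 arrays between each junction gene on the vertical axis and, on the horizontal axis, the other junction genes (left of the black line) or the mean of a marker list (right of it). Red is positive and blue negative; Cdh5 and Cldn5 follow the endothelial markers at 0.84 and 0.78, and Cldn4 is negative with the 8 other genes.

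The genes tested whose pattern over the 25 arrays was most like each member were named by the highest Pearson r. Cdh5 was closest to Tmem44 (r = 0.89), Myl12b (0.87) and Ankrd50 (0.86). Cldn5 was closest to Tmcc2 (0.87), to the endothelial adhesion gene Esam (0.85) and to Garre1 (0.82). Cdh1 was closest to Acsl4 (0.84), Ate1 (0.84) and Tmem164 (0.83), and Ocln to Dram1 (0.85), Eif2ak4 (0.84) and Mbip (0.83). Tjp1 was closest to Cyp4b1 (0.87), Stk25 (0.86) and Cav2 (0.86), and Cldn18 to Phldb2 (0.85), Fgf1 (0.84) and Col4a4 (0.83). Cldn3 and Cldn7 shared Socs2, at r = 0.82 and 0.77. Cldn4 had the lowest best match of the 9, Cbr3 at r = 0.76.

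The wider set of 38 tight junction genes tested had 2 lower and none higher between radiation and control, a median difference of -0.10 beside -0.01 for all genes, in a comparison that called 4.4% of all genes. The 2 were Cldnd1, a claudin-domain protein, at -0.56 (adjusted p = 0.00141), and Mpp5, the PALS1 scaffold of the apical Crumbs complex, at -0.55 (adjusted p = 0.00152). Cldnd1 was higher again with radiation+fTyS (0.48 above radiation, adjusted p = 0.0323) and radiation+SEW (0.51, adjusted p = 0.0134). Under SEW alone 8 of the 38 were lower and none higher, where 14.6% of all genes were called, among them Tjp3, the gene of ZO-3, at -0.49 (adjusted p = 0.00573), and Patj, a Crumbs complex scaffold, at -0.35. Over irradiated against unirradiated groups, where 20.8% of all genes were called, 4 were lower and 1 higher: Cldn10, an ion-pore claudin, at -0.43 (adjusted p = 0.000215), Mpp5 at -0.28, Marveld3 at -0.16 and Amotl2 at -0.12, with the polarity gene Pard6b 0.17 higher.

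Among 22 adherens junction genes, 1 was lower after radiation, near the 4.4% of all genes called there: the kidney-type cadherin Cdh16, at -0.89 (adjusted p = 0.0178) and a level of 6.48, next to the filter on low values. Over all irradiated groups 3 of the 22 were lower and 2 higher, against 20.8% of all genes called. The phosphatase Ptprb, which acts on VE-cadherin, was 0.21 lower (adjusted p = 0.00165) and Ptprk 0.29 lower, while Ajuba and Lima1 were 0.19 and 0.10 higher. Nectin2 fell by 0.28 under SEW and was 0.36 higher in radiation+SEW than in SEW (adjusted p = 0.00858). N-cadherin, Cdh2, was called in 1 comparison: it read 8.85 ± 0.53 (SD, n = 3) under radiation+SEW and 7.94 ± 0.28 (SD, n = 3) under SEW, 0.91 higher (adjusted p = 0.0476). Of 14 desmosome and gap junction genes none was called between radiation and control, where 4.4% of all genes were. Over the irradiated groups 1 of the 14 was called, against 20.8% of all genes: the connexin gene Gja1, 0.28 higher.

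Some genes of sphingosine-1-phosphate signalling are given over irradiated against unirradiated groups, a comparison that called 20.8% of all genes. The receptor S1pr3 was 0.31 higher (adjusted p = 0.000291) and the kinase Sphk2 0.22 higher (adjusted p = 0.00107), while S1pr1 was 0.48 lower (adjusted p = 0.0184). Between radiation and control S1pr1 differed by 0.16 (adjusted p = 0.840). S1pr1 ranged from 9.68 to 10.75 among the controls alone. Under SEW, its agonist, S1pr1 read 10.93 ± 0.09 (SD, n = 3) against 10.13 ± 0.50 (SD, n = 4) in controls, 0.80 higher (adjusted p = 0.0462), and under radiation+FTY it was 1.01 lower than under FTY (adjusted p = 0.0226). Cdh5 and Cldn5 were called in neither of those comparisons.

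Transcription factors that act on junction genes were read in the same comparisons. Those named below are among the ones called, and the uncalled factors of the list are not shown. Of 26 tested, 1 was lower after radiation (4.4% of all genes called), 4 were lower under SEW (14.6%), 2 were lower and 1 higher under FTY (2.73%), and 4 were lower over the irradiated groups (20.8%). The 1 higher was Ovol2, a zinc-finger factor of epithelium, at 0.40 (adjusted p = 0.0233), a gene named here after its values were seen. Zeb2, a zinc-finger repressor of Cdh1, read 11.17 ± 0.15 (SD, n = 4) in controls and was lower by 0.34 after radiation (adjusted p = 0.0294), by 0.38 under SEW (adjusted p = 0.00757) and by 0.49 under FTY (adjusted p = 0.00805), comparisons that share the control arrays. With radiation and a compound, the Zeb2 means were 11.09 (radiation+fTyS), 11.06 (radiation+SEW) and 10.97 (radiation+FTY). Snai2, another repressor of Cdh1, was lower by 0.61 under FTY (adjusted p = 0.0200). Grhl2, an activator of Cdh1 and Cldn4 in epithelium, was lower by 0.50 under SEW and 0.48 higher in radiation+SEW than in SEW. Snai2 read 10.08 ± 0.14 (SD, n = 4) in controls and 9.48 ± 0.33 (SD, n = 3) under FTY. Cdh1, Zeb2 and Snai2 each had their highest mean in controls. The endothelial factor Sox17 was 0.45 lower over the irradiated groups, and the lung epithelial factor Nkx2-1 0.23 lower.

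Zeb and Snail proteins bind the E-box CAGGTG, or CACCTG on the other strand. Windows from 250 bases before to 50 after the start sites were searched for it on both strands. RefSeq windows of the build GRCm38.p6 were held for 7 of the genes, 10 windows in all. Cdh1 and Cdh5 had no window and were not searched, so the search says nothing about Cdh1. A match stood in 5 windows of 4 genes: Cldn3, Cldn4, Cldn7 and Ocln. Of all 32851 windows of that length, 20.2% held one. None stood in the windows of Cldn5, Cldn18 and Tjp1, which says only that these letters are absent there. Cldn3 and Cldn4 are neighbours on chromosome 5, 39279 bases apart, and the Cldn3 match began 32 bases into the transcript. The stretches from 130 bases before to 20 bases after the start are shown for the 2 genes whose matches lie closest to it, and for the endothelial claudin as a window without one. They run 5′ to 3′ along the gene's strand, and capitals mark the E-box.
Cldn4, chr5:134946915-134947064, minus strand: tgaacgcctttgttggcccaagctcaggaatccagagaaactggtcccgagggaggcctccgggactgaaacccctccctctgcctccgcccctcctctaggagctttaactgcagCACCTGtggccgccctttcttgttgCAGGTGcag
Ocln, chr13:100552699-100552848, minus strand: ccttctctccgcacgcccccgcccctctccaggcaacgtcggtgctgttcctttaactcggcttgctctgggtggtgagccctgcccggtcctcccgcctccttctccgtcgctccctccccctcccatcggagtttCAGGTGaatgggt
Cldn5, chr16:18776717-18776866, plus strand: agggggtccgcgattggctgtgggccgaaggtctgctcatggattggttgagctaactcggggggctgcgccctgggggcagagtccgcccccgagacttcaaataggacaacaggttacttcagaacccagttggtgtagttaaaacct
The matches in Cldn4 lie on either side of the start, and that of Ocln just after it. Binding was not measured in this study.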

How the data were processed

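Total lung RNA (6 µg, biotin-labelled) was hybridised to Affymetrix mouse arrays. The authors deposited linear signal intensities of 45101 probe sets, made with GCOS per the submitters' processing notes; its version, the summary method and the scaling are not given in the sources used here. Array medians lay between 118.33 and 129.58. Precision is limited by how many arrays there are. The deposited intensities were turned into log2(signal + 16). Probe sets with several symbols (932) or none (9160) and 64 controls were left out, and genes at or below the 40th percentile of mean log2 over probe sets (6.49) were not tested. Gene positions and promoter windows are RefSeq's (GRCm38.p6).

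One limma fit (limma 3.58.1, R 4.3.3) of 8 group means on all 25 arrays (eBayes with trend, 17 residual df) gave 22 two-sided comparisons, adjusted by Benjamini-Hochberg over 12937 genes within each. It was tested on simulated data. The labels state no pairing. Same-number arrays all correlated above 0.1 in 5 of 16 comparisons between 2 groups, and the values of the 16 ranged from -0.81 to 0.78. These 5 were control with radiation, control with fTyS, radiation+fTyS with radiation or fTyS, and SEW with FTY. Beside the main values, an alternative fit took the replicate number as a block over all 25 arrays. Named genes of the wider lists are those called with the smallest p, up to 6 a list for radiation and 2 elsewhere, with Cdh2, Pecam1 and S1pr1. One further list is not reported here. The members and lists were chosen with earlier results of these data known. The 2 alternatives on squamous keratins were chosen after seeing the data. The other alternatives were the pseudocount, normalization, filter, probe set rule, variance model, array weights, marker covariates, the arrays fitted and leaving out each array.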

Additional observations from a re-analysis of the deposited data

Results flagged for a closer look

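Radiation response of Cdh1 under SEW differed from that without compound by a test of the difference itself: radiation+SEW less SEW exceeded radiation less control by 0.27 on the log2(signal + 16) scale (limma, 95% interval 0.12 to 0.41, adjusted p = 0.0156). It was called in 37 of 41 alternatives, with adjusted p between 0.00789 and 0.218. No control array of the 9 genes stood apart by Dixon's criterion for 4 samples.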

How the results depend on the processing

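The 6 calls and the counts of junction genes called were recomputed under 41 alternatives: 25 that leave out 1 array each and 16 others. No call changed sign, none of the 6 was made in all 41, and 158 of the 198 pairs were called in none. Counts that moved are given here by setting, and the cause was not tested. The share of all genes called under each setting is not given, so no count in this section is read as a result about the members. The count for radiation against control was 1 as reported; it was 0 with quantile normalization, median centring, no filter, eBayes without trend, the replicate block, the epithelial covariate, without the arrays high in squamous keratins and with only the arrays compared, and 3 with the endothelial covariate. For compounds against control (2) it was 1 with quantile normalization, no filter, the mean of all probe sets, eBayes without trend and only the arrays compared; 0 with median centring, the replicate block, the muscle and adipocyte covariates, the epithelial covariate and without the arrays high in keratins; and 5 with array weights. For compounds added to radiation (0) array weights gave 1. For the radiation response under compounds (1) the mean of all probe sets and the keratin covariate gave 2, array weights 4, and leaving out the arrays high in keratins or fitting only the arrays compared 0. For compounds against each other (0) array weights gave 7. For the interactions (1), median centring, the epithelial covariate and leaving out the arrays high in keratins gave 0, the muscle and adipocyte covariates 2, the keratin covariate 4, and array weights and the endothelial covariate 5. For all irradiated against all unirradiated groups (0), the mean of all probe sets, the stricter filter (60th percentile) and the replicate block gave 1, the keratin covariate 2, array weights and the epithelial covariate 3, and the muscle and adipocyte covariates 4. For the mean of the compounds against control (1), median centring, the epithelial covariate and leaving out the arrays high in keratins gave 0, and the 60th percentile filter, array weights, the endothelial and the keratin covariate gave 2. For the F test (0), the mean of all probe sets, the muscle and adipocyte covariates and the epithelial covariate gave 1, the endothelial covariate 2, the keratin covariate 3 and array weights 7.

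Leaving out 1 array gave counts from 0 to 1 for radiation against control, 0 to 2 for compounds against control, 0 to 0 for compounds added to radiation, 0 to 2 for the response under compounds, 0 to 1 between compounds (1 without radiation+fTyS replicate 2), 0 to 2 for the interactions, 0 to 3 for irradiated against unirradiated (3 without FTY replicate 3), 0 to 2 for the mean of the compounds, 0 to 0 for the mean of the compounds in irradiated lung and 0 to 2 for the F test.

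With the replicate number as a block, the Ocln difference under SEW was -0.31 (adjusted p = 0.0607) and that of Cdh1 under SEW -0.15 (adjusted p = 0.0527). Same-number arrays of SEW and control correlated between -0.80 and -0.22. The other calls but that of Cdh1 after radiation held with the block. For 7 of 25 arrays, the most similar array carried the same replicate number. Dim probe sets such as Cldn4 lie nearer the background, and their fold changes are understated by the pseudocount.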
